A study of Rattus norvegicus with 10 samples.

Results

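The 8 genes followed here act on DNA damaged by alkylating agents or on the mismatches such damage leaves. They are Mgmt, Mpg, Apex1, Polb, Xrcc1, Parp1, Msh6 and Pms2. They were chosen by name, and 7 of the 8 were found among the 36061 genes of the array. In that number and all later ones, a transcript identifier without a gene symbol counts as a gene. No probe matched Msh6 through its transcript identifier, so its level was not analysed here. Of 41012 probes, 23510 had no gene symbol, and a probe for Msh6 may be among them. The samples were mammary tumours of female Sprague-Dawley rats, all given a 50 mg/kg intraperitoneal dose of N-methyl-N-nitrosourea (MNU, a carcinogen that adds methyl groups to DNA) at 3 weeks of age and all measured at 110 days of age. In the 5 tumours of the WD group the dams had eaten a Western-style diet, high in fat and low in fibre and oligoelements, during gestational days 12 to 20 and postnatal days 1 to 21. In the 5 tumours of the CD group the dams had eaten control diet over the same days, and the offspring of both groups ate control diet after weaning. No tumour came from an animal without MNU, and RNA was taken from tubular or papillary tumours, so neither group shows the untreated gland. Whether tumours share a dam or a litter is not stated in the labels, and p-values therefore measure the spread between these tumours only.

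MNU methylates guanine and adenine at several positions. Mgmt takes the methyl group off the oxygen of guanine in 1 step and is used up in doing so. Other methylated bases are cut out by base excision repair, in which a glycosylase such as Mpg removes the base, Apex1 cuts the strand at the empty site, Polb fills the gap, and Xrcc1 and Parp1 bring the factors that handle the nick. Where a methylated guanine is still present at replication it pairs with thymine, and mismatch repair, in which Msh6 and Pms2 act, takes up the mismatch.

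Each tumour was hybridised to 1 array in 1 colour (Cy3). Levels are log2 intensities relative to the 75th percentile of the array, so a level of 0 is that percentile, and since probes differ in brightness no level is compared between probes. The 75th percentile of intensity itself lay between 72.8 and 170 on WD arrays and between 85.1 and 226 on CD arrays, so WD arrays were dimmer on average (6.67 ± 0.48 against 7.40 ± 0.57 on the log2 scale, SD, n = 5 each). Each array had 16684 to 21906 probes well above background. Slide 1 held 2 WD tumours and CD2, slide 2 held 2 tumours of each group, and slide 3 held WD5 and 2 CD tumours. Differences given below for slide 1 or slide 3 therefore rest on 1 tumour in 1 group. Of the markers of the tissue, 6 of 8 luminal epithelial genes were measured, with a mean level of 4.22 in WD and 4.61 in CD tumours, and 5 of 8 basal and myoepithelial genes, at 3.04 in WD and 3.36 in CD tumours. Markers of other cells were also present. The 4 measured of 8 T cell genes averaged 1.78 in WD tumours (range 0.95 to 2.63) and 0.81 in CD tumours (0.29 to 1.24), and the 8 fibroblast genes averaged 3.42 (2.24 to 3.98) in WD and 2.68 (1.59 to 3.25) in CD tumours. The 9 macrophage genes averaged 3.16 in WD and 2.57 in CD tumours, and the 5 measured of 6 mast cell genes -0.42 in WD and 0.50 in CD tumours. In a whole tumour, fewer cells of a type and less RNA per cell cannot be told apart, and the part of these cells in the differences below was not tested.

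No difference between the diet groups passed the test for any of the 7 measured genes. None reached an adjusted p of 0.05 in limma (Benjamini-Hochberg over 16764 genes), nor did any other gene, so the background of that call is 0%. At an unadjusted p under 0.05 the count was 0 of 7, against 15.5% of all genes tested. The levels of WD and CD tumours overlapped in each of the 7, against 3.64% of all genes whose groups did not overlap. The median difference of the 7 was -0.00 (log2), against 0.01 for all genes.

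**Figure D1:**
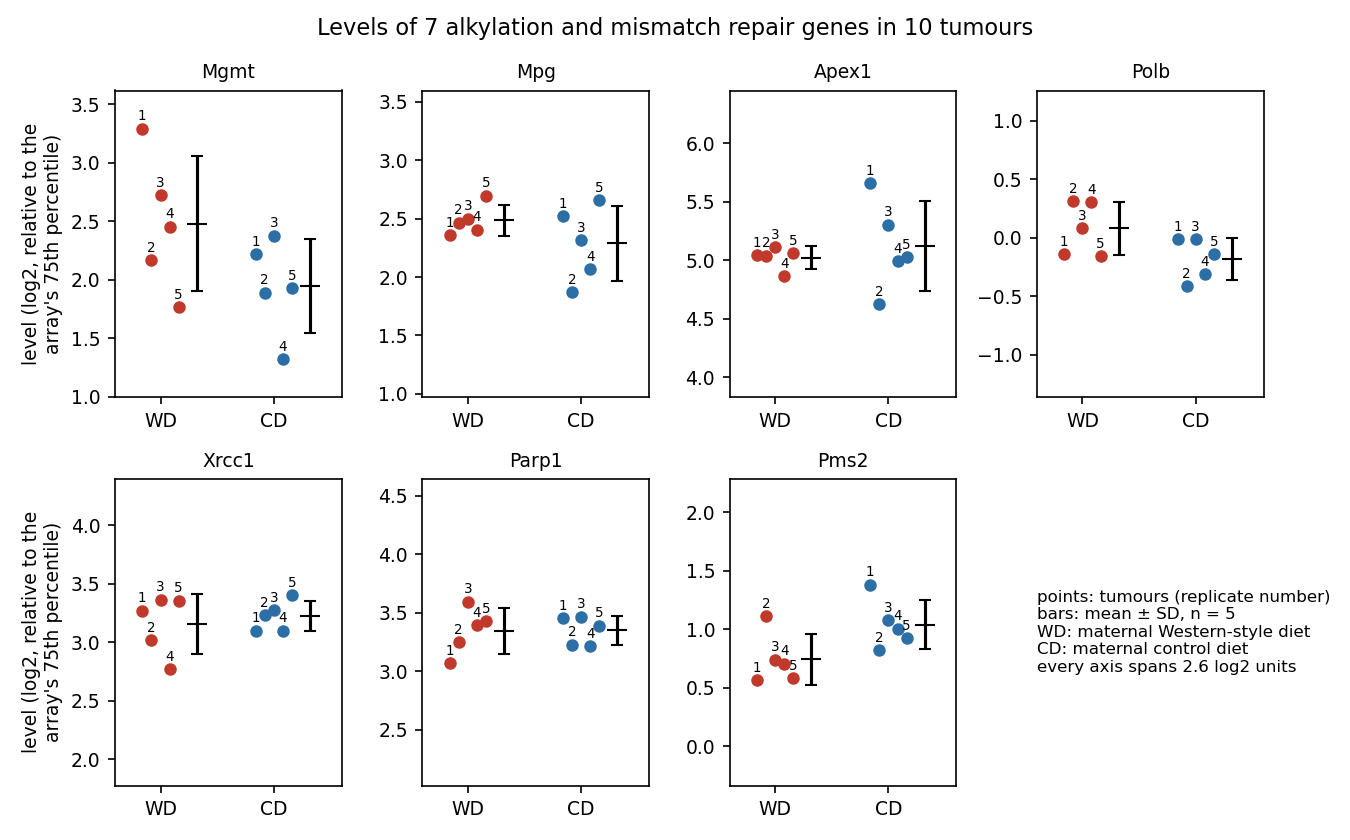
Levels of the 7 measured genes in each of the 10 tumours (log2 relative to the array's 75th percentile; every vertical axis spans the same number of log2 units). Points are tumours with their replicate numbers, and bars are mean ± SD of 5 WD and 5 CD tumours. Mgmt has the widest spread, between 1.32 in CD4 and 3.29 in WD1, and the groups overlap in every panel.

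Mgmt, the direct reversal protein, varied most of the 7. Its level was 3.29, 2.17, 2.72, 2.45 and 1.76 in WD1 to WD5 and 2.22, 1.89, 2.37, 1.32 and 1.93 in CD1 to CD5. WD1 was the highest of all tumours and CD4 the lowest, while WD5 lay below 4 of the 5 CD tumours. The mean was 2.48 ± 0.58 in WD and 1.95 ± 0.40 in CD tumours (SD, n = 5 each), a difference of 0.53 (95% interval -0.10 to 1.16). In limma the adjusted p was 0.391 and the unadjusted p 0.0895. That is 1.45-fold higher in WD tumours, with an interval of 0.94 to 2.23-fold. Its standard deviation over the 10 tumours stood at the 76.8th percentile of all genes tested. The difference was 0.84 on slide 1 (CD2 the only CD tumour), 0.43 on slide 2 and -0.01 on slide 3 (WD5 the only WD tumour). With array brightness as a covariate the difference was 0.22 (limma adjusted p 0.930). Leaving out WD1 gave 0.33 and leaving out WD5 gave 0.71.

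Mpg, the glycosylase, had 2 probes above background on all 10 arrays, and they differed in opposite directions. The brighter probe, A_42_P740209, gave 2.36, 2.46, 2.50, 2.40 and 2.70 in WD1 to WD5 and 2.52, 1.87, 2.32, 2.07 and 2.66 in CD1 to CD5. All 5 WD tumours lay above the CD mean, but CD1 and CD5 lay above 4 of them. The means were 2.48 ± 0.13 in WD and 2.29 ± 0.32 in CD tumours (SD, n = 5 each), a difference of 0.20 (95% interval -0.18 to 0.57; limma adjusted p 0.595). On slides 1, 2 and 3 this difference was 0.54, -0.04 and 0.40. The dimmer probe, A_44_P360804, gave 0.33, -0.45, -0.03, -0.16 and 0.17 in WD1 to WD5 and 0.56, 0.68, 0.07, 0.42 and 0.53 in CD1 to CD5. All 5 WD tumours lay below the CD mean on this probe, and the groups overlapped only through CD3. The means were -0.03 ± 0.30 in WD and 0.45 ± 0.23 in CD tumours (SD, n = 5 each), a difference of -0.48 (95% interval -0.88 to -0.08). Its adjusted p over all probes was 0.252 in limma and its unadjusted p 0.0217, where 15.6% of all probes were under 0.05. With array brightness as a covariate this probe's difference was -0.20.

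The gap between the 2 Mpg probes (brighter minus dimmer) averaged 2.51 ± 0.31 in WD and 1.84 ± 0.42 in CD tumours (SD, n = 5 each). The gap differed by 0.68 (limma unadjusted p 0.0103, adjusted p 0.219 over 2442 genes with several kept probes), where 16.4% of genes had an unadjusted p under 0.05. The diet difference of Mpg therefore had no settled direction, and the mean of its probes differed by -0.14.

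Parp1, the strand break sensor, also had 2 probes above background on all arrays. The brighter, A_44_P1033023, gave 3.07, 3.25, 3.60, 3.39 and 3.43 in WD1 to WD5 and 3.45, 3.23, 3.47, 3.21 and 3.39 in CD1 to CD5. These levels were among the steadiest on the array, with a standard deviation at the 2.69th percentile of all genes tested. The means were 3.35 ± 0.20 in WD and 3.35 ± 0.12 in CD tumours (SD, n = 5 each), a difference of -0.00 (95% interval -0.31 to 0.30; limma adjusted p 0.992). The dimmer probe, A_43_P11687, gave 0.68, 0.30, 0.53, 0.19 and 0.77 in WD1 to WD5 and 0.92, 1.08, 0.49, 0.88 and 0.75 in CD1 to CD5. All 5 WD tumours were below the CD mean there, and the difference was -0.33 (95% interval -0.70 to 0.03; limma adjusted p 0.359). With array brightness as a covariate it was -0.10. The gap between the probes was 2.86 ± 0.32 in WD and 2.53 ± 0.32 in CD tumours (SD, n = 5 each), and its adjusted p was 0.419 in limma. The 2 Parp1 probes had a Pearson's r of -0.21 over the tumours, so they did not vary alike.

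**Figure D2:**
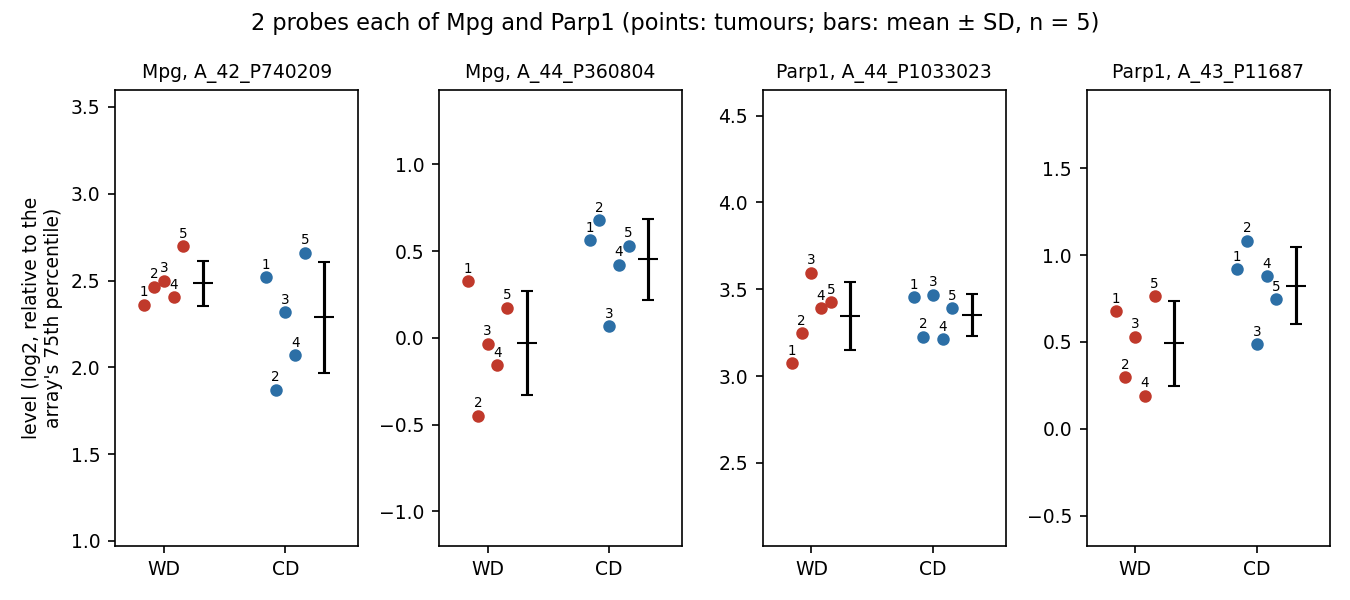
Levels of the 2 kept probes of Mpg and of Parp1 in each tumour (log2 relative to the array's 75th percentile). Points are tumours with their replicate numbers and bars are mean ± SD of 5 WD and 5 CD tumours. WD tumours average 2.48 against 2.29 in CD tumours on the brighter Mpg probe, and -0.03 against 0.45 on the dimmer one.

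Apex1, the endonuclease for abasic sites, held a narrow range in WD tumours, 5.04, 5.04, 5.11, 4.86 and 5.06 in WD1 to WD5. In CD1 to CD5 it was 5.66, 4.62, 5.30, 4.99 and 5.03, so that the highest and the lowest of the 10 levels were both in CD tumours. The means were 5.02 ± 0.10 in WD and 5.12 ± 0.38 in CD tumours (SD, n = 5 each), and the difference was -0.10 (95% interval -0.50 to 0.31; limma adjusted p 0.826). Without CD1 the difference was 0.04. It was 0.42 on slide 1, -0.18 on slide 2 and -0.26 on slide 3. The sign thus differed between slides, but CD2, the lowest tumour, was the only CD tumour on slide 1.

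Polb, the gap-filling polymerase, was at -0.14, 0.31, 0.08, 0.30 and -0.16 in WD1 to WD5 and at -0.01, -0.42, -0.01, -0.31 and -0.14 in CD1 to CD5. WD2, WD3 and WD4 lay above every CD tumour, while WD1 and WD5 lay among them. The means were 0.08 ± 0.23 in WD and -0.18 ± 0.18 in CD tumours (SD, n = 5 each). The difference was 0.26 (95% interval -0.08 to 0.60; limma adjusted p 0.435). It was 0.50, 0.27 and 0.01 on slides 1, 2 and 3, and 0.09 with array brightness as a covariate.

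Xrcc1, the scaffold that binds Polb and the nick-sealing ligase, was at 3.27, 3.02, 3.37, 2.77 and 3.36 in WD1 to WD5 and at 3.10, 3.23, 3.28, 3.10 and 3.40 in CD1 to CD5. WD4 was the lowest of all, and the other levels lay close together. The means were 3.16 ± 0.26 in WD and 3.22 ± 0.13 in CD tumours (SD, n = 5 each), a difference of -0.07 (95% interval -0.41 to 0.27; limma adjusted p 0.864). Without WD4 it was 0.03, and on slides 1, 2 and 3 it was -0.09, -0.27 and 0.26. The 95% intervals of Apex1, Xrcc1 and the brighter Parp1 probe leave room for differences of up to -0.50, -0.41 and -0.31 at their lower ends.

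Pms2, which cuts the strand in mismatch repair, was lower in 4 of 5 WD tumours than the CD mean. Its levels were 0.57, 1.11, 0.74, 0.71 and 0.58 in WD1 to WD5 and 1.38, 0.82, 1.08, 1.01 and 0.92 in CD1 to CD5. WD2 alone reached the range of the CD tumours, and CD1 was the highest of all. The means were 0.74 ± 0.22 in WD and 1.04 ± 0.21 in CD tumours (SD, n = 5 each), a difference of -0.30 (95% interval -0.65 to 0.05; limma adjusted p 0.386, unadjusted 0.0863). The slides gave 0.02, -0.28 and -0.61, and the fit with array brightness as a covariate gave -0.42 (limma adjusted p 0.856). A second Pms2 probe was above background on 1 of 10 arrays and was not used.

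The same comparison was made over the genes of the repair pathways, in 6 lists that together had 74 tested genes, the 7 included. None of the 74 passed the adjusted threshold, and 4 had an unadjusted p under 0.05 (5.41%), a smaller share than the 15.5% of all genes tested. All 4 had lower means in WD tumours, but Parg and Fancc among them passed the filter on dim probes through the CD arrays, so no direction is read from that count. Of all 16764 genes tested, 8621 had a higher and 8143 a lower mean in WD tumours. In mismatch repair, all 18 tested genes of the list's 21 had a lower mean in WD tumours, with a median difference of -0.16 and no unadjusted p under 0.05. The list shares many genes with replication, and 22 of 24 measured cell cycle genes also had a lower mean in WD tumours (median difference -0.55). With the cell cycle level as a covariate, 12 mismatch repair genes had lower and 6 higher means, with a median of -0.04. With array brightness as a covariate 17 of 18 were lower (median -0.13), and with slide as a block all 18 were (median -0.19). The part of proliferation in the list's difference was not tested. Other genes of the list with small p-values were Rfc2, a subunit of the clamp loader (-0.49, limma adjusted p 0.327), Rfc5 of the same complex (-0.51, adjusted p 0.419) and Rpa2, which coats single-stranded DNA (-0.30, adjusted p 0.518). Rfc5 was well above background on 3 of 5 WD and 5 of 5 CD arrays, so its size is uncertain.

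In base excision and single-strand break repair, 6 of 18 tested genes had higher and 12 lower means, with a median of -0.07, which was -0.01 with the cell cycle level and -0.15 with array brightness as a covariate. The 2 with an unadjusted p under 0.05 were Ung, which removes uracil from DNA (-0.82, limma adjusted p 0.297), and Parg, which removes poly(ADP-ribose) chains (-0.90, adjusted p 0.262). Ung was well above background on 4 of 5 WD arrays and Parg on 1 of 5 WD arrays, against 5 of 5 CD arrays for each, so the sizes are uncertain. The glycosylases Ogg1 and Nthl1, for oxidised bases, differed by -0.32 and -0.20 (adjusted p 0.401 and 0.468 in limma). Of the 3 direct reversal genes tested, Alkbh2 and Alkbh3, demethylases of other alkylated bases, differed by -0.05 and -0.19, with Mgmt the only 1 that was higher.

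In nucleotide excision repair 8 of 9 tested genes had lower means, with a median of -0.16. The median was -0.16 with the cell cycle level and -0.06 with array brightness as a covariate. Xpc, the damage sensor of that pathway, lay between -1.66 and -1.26 in WD tumours and between -1.08 and -0.95 in CD tumours. The groups did not overlap, as in 3.64% of all genes tested. The difference was -0.43 (95% interval -0.70 to -0.15, limma adjusted p 0.186, unadjusted 0.00543). Of all genes tested, 15.5% had an unadjusted p under 0.05 in limma. Xpc was named for the smallest p of its list, and its level had a Pearson's r of 0.62 with array brightness. Its difference with array brightness as a covariate is not given here. Ercc1 differed by -0.24 and Ercc8 by -0.21 (adjusted p 0.456 and 0.528 in limma). In homologous recombination and end joining 9 of 14 genes had higher and 5 lower means, and the median of 0.10 was 0.20 with the cell cycle level and -0.02 with array brightness as a covariate. Fancc differed by -1.03 (limma adjusted p 0.229) but was above background on 2 of 5 WD arrays, Xrcc5 by -0.36, Rbbp8 by 0.31 and Xrcc4 by 0.26. In damage signalling and p53 targets 8 of 13 had higher means, with a median of 0.23. That median was 0.06 with the cell cycle level (8 of 13 higher) and 0.25 with array brightness (11 of 13 higher) as a covariate. Bbc3, a cell death gene, differed by 0.32, Atm by 0.33, Chek2 by -0.40 and Atrip by 0.24 (limma adjusted p 0.435, 0.518, 0.522 and 0.530). Atm was above background on 2 of 5 WD and 3 of 5 CD arrays, and Chek2 on 4 of 5 WD and 5 of 5 CD arrays.

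**Figure D3:**
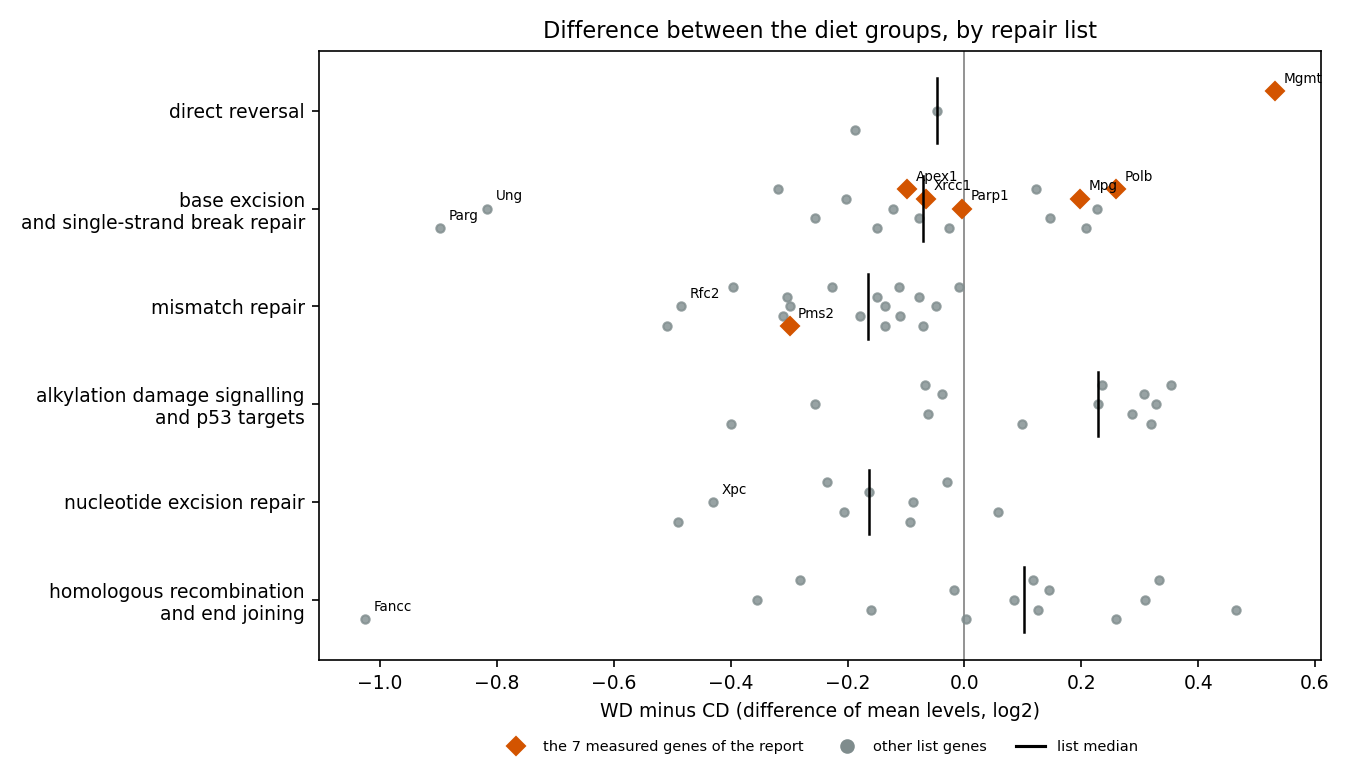
Difference between the mean levels of WD and CD tumours (log2, WD minus CD) for each tested gene of the 6 repair lists. Diamonds are the 7 genes followed here, circles the other list genes and black lines the list medians, which lie between -0.16 (mismatch repair and nucleotide excision repair) and 0.23 (damage signalling and p53 targets).

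The levels were then set against the proliferation of each tumour, since repair at the replication fork is known to follow the cell cycle. The cell cycle level, the mean of 24 measured genes of a 29-gene list without repair genes, was -0.98, 0.63, 0.18, -1.69 and -0.33 in WD1 to WD5 and 0.80, 0.21, -1.01, -0.50 and 0.82 in CD1 to CD5. Each gene's slope on that level was fitted in limma with diet in the model, in units of log2 per log2. Among 16740 genes outside the list, 202 had an adjusted p under 0.05 (1.21%), 140 of them with a positive slope (0.836%) and 62 with a negative one (0.37%). At an unadjusted p under 0.05, 4.52% of genes had a positive slope.

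None of the 7 followed the cell cycle level by that test, and none had an unadjusted p under 0.05. Their slopes were -0.10 for Mgmt, 0.11 for Mpg, 0.07 for Apex1, 0.01 for Polb, 0.08 for Xrcc1, 0.03 for Parp1 and 0.10 for Pms2, with adjusted p between 0.875 and 0.994 in limma. The intervals bound these slopes, for Pms2 between -0.12 and 0.33 and for Parp1 between -0.18 and 0.24. The Mpg and Parp1 slopes are of the brighter probes, and their dimmer probes had slopes of 0.02 and 0.08. Over the 10 tumours, Pearson's r with the cell cycle level ran between -0.30 (Mgmt) and 0.50 (Pms2) and Spearman's rho between -0.33 (Mgmt) and 0.47 (Pms2). For Pms2 the permutation p was 0.140 for r and 0.178 for rho (adjusted 0.753 and 0.769), and r was 0.69 without WD4 and CD3, the 2 tumours farthest from the median.

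Other repair genes did follow it. Of the 74 list genes, 6 had an adjusted p under 0.05, all with a positive slope. Among them were Exo1 (slope 0.94, 95% interval 0.75 to 1.14), the nuclease of mismatch repair, Bard1 (0.94, interval 0.63 to 1.25) and Rad54l (0.69, interval 0.40 to 0.99) of homologous recombination, Lig1, the replicative ligase (0.52, interval 0.32 to 0.71), and Pold1, a replicative polymerase (0.55, interval 0.31 to 0.79). Their adjusted p-values in limma were 0.0006 for Exo1, 0.008 for Bard1, 0.0353 for Rad54l, 0.0161 for Lig1 and 0.0382 for Pold1. These 6 of 74 list genes compare with 0.836% of all genes that had a positive slope called. With slide as a block all 6 remained under 0.05, while with normexp background correction none did. Exo1 passed in all 10 fits that left out 1 tumour, Bard1 in 9, Lig1 in 7, Rad54l in 3 and Pold1 in 2. For Exo1, r was 0.98 and rho 0.99 (permutation adjusted p 0.0172 and 0.0335), and r was 0.96 without WD4 and CD3.

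All 18 mismatch repair genes had a positive slope, with a median of 0.38, against -0.00 for all genes. The slope of Pms2 was among the lower ones of that list. In base excision repair the median slope was 0.07 and the 5 genes followed here lay between 0.01 and 0.11. The difference between the slopes of these genes and those of Exo1 or Lig1 was not tested.

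**Figure D4:**
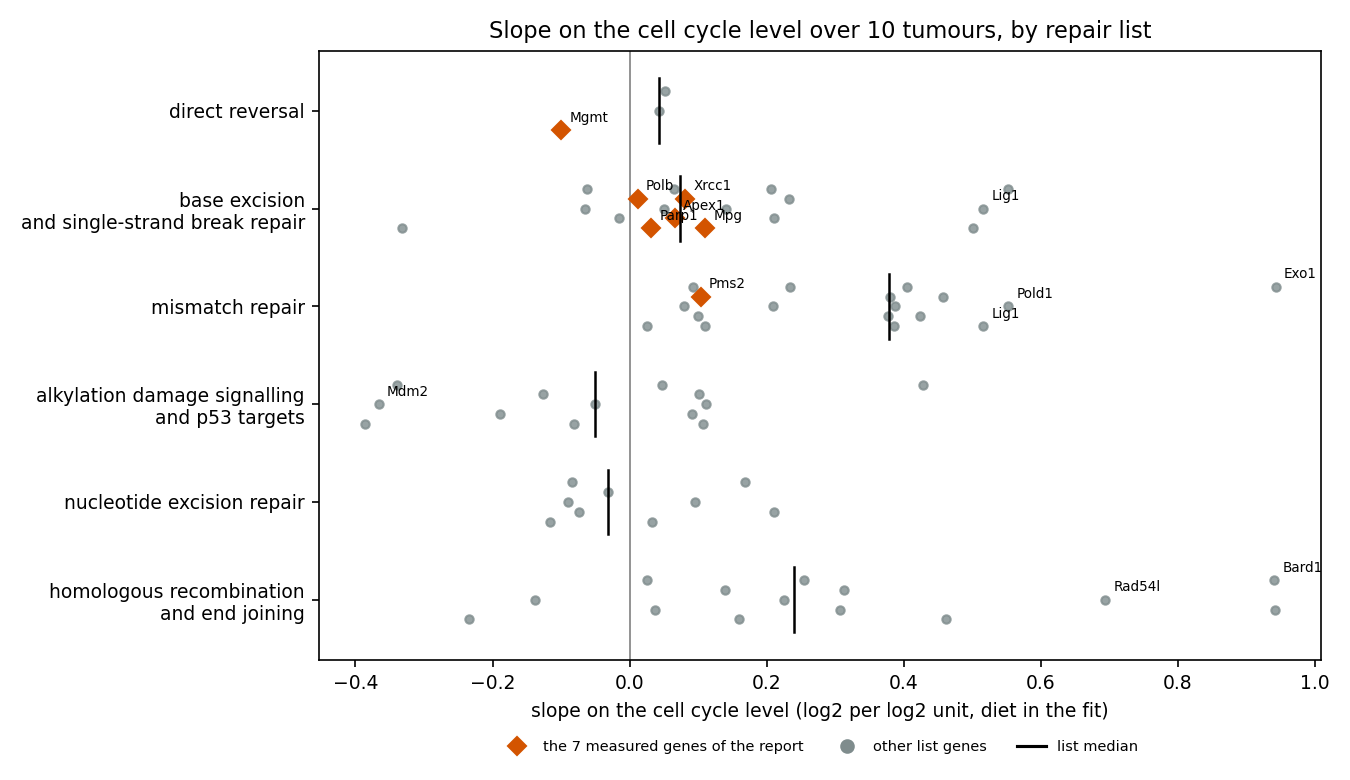
Slope of each repair list gene on the cell cycle level over 10 tumours (log2 per log2 unit, with diet in the fit). Diamonds are the 7 genes followed here, circles the other list genes and black lines the list medians. The diamonds lie between -0.10 and 0.11, and Exo1 and Bard1 lie at 0.94.

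For each of the 7, the named genes whose levels ran most alike over the 10 tumours were listed from 8259 genes by Pearson's r, as a description without a test. For Mgmt these were Spdl1 (0.86), Phactr1 (0.84) and Pknox1 (0.83), and no gene exceeded 0.9. For Mpg they were Czib, Nop58 and Pdcl3 (0.93 each), on its brighter probe. For Apex1 they were Paics, an enzyme of purine synthesis (0.91), Setd6 and Pard3 (0.88 each). Polb ran most like Hook3, Mtpn and Zc3h13 (0.97 each), and 48 genes exceeded 0.9. Xrcc1 ran most like Pmvk (0.92), Qtrt1 (0.90) and Foxk2 (0.89). Parp1, on its brighter probe, ran most like Rnpep (0.97), Lsm7 and Nsa2 (0.94 each), and 19 genes exceeded 0.9. Pms2 ran most like Sdccag8 (0.90), Zfp24 and Zfp251 (0.89 each). The 10 arrays share 3 slides and differ in brightness. Pearson's r with array brightness was -0.73 for Polb and -0.62 for Mgmt, and between -0.23 (Parp1) and 0.21 (Xrcc1) for the others. The part of brightness in these likenesses was not tested.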

How the data were processed

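Tumour RNA was hybridised to Agilent whole rat genome arrays, 1 colour and 1 tumour per array. Per the file headers the arrays were read with Feature Extraction 11.5.1.1, while per the submitters' processing notes the version was 15.5. The deposited files hold a processed intensity per spot, background-subtracted before deposit, and also the median signal and median background. Marks for outlier, saturated and above-background spots are other columns of 0 or 1 per the file headers. The deposited matrix holds log2 values whose ranks equal those of the median spot signals (Spearman 1); how the authors normalized it is not stated in any source read here.

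From these, log2 processed intensity minus the 75th percentile of each array was computed, outlier spots were left out and spots of a probe averaged. Probes above background on at least 5 of 10 arrays were kept (19725 probes, 16764 genes, 8260 with a symbol), and the kept probe of highest mean level stood for a gene. Of 41012 probes, 17502 were named through RefSeq transcript identifiers (GRCr8 table, names only). The comparison of groups used limma (3.58.1, with R 4.3.3) (Benjamini-Hochberg over all genes); plots used matplotlib 3.10.9. The procedure was tested on simulated data. Correlations used 100000 permutations. The planned normexp correction on mean signals used median signals instead, because the files used here have no mean signal column. The arrays lie on 3 slides, each holding both groups and scanned on its own, which leaves slide and scan indistinguishable. Replicate numbers were not used as pairs in the main fit. Deviations of same-numbered tumours correlated between -0.02 and 0.16. Differently numbered tumours were not compared, so this cannot exclude that the numbers mark a pairing.

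The genes named were the 8 by name with every kept probe, up to 4 genes of smallest p in each repair list and the 3 named genes most like each of the 7 measured; some genes that the rule takes are not reported here. Bard1, Rad54l, Exo1, Lig1 and Pold1 were named after their slopes were seen. The genes and lists were chosen with earlier results of these data known. The number of arrays limits the precision.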

Additional observations from a re-analysis of the deposited data

How the results depend on the processing

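No gene passed the adjusted threshold for a diet difference under any alternative run, so that call for the 7 genes did not depend on the processing. Over 77 alternatives of their differences (other than leaving out tumours), 71 kept their direction, the lowest adjusted p in limma being 0.26. Directions turned for Mpg with the mean of its probes (-0.14), for Xrcc1 (0.017) and Parp1 (0.073) with normexp, and for Parp1 with slide as a fixed block (0.035), slide as a random block (0.0089) and the cell cycle level as a covariate (0.012). Leaving out 1 tumour gave ranges of 0.33 to 0.71 for Mgmt, 0.09 to 0.29 for Mpg, -0.22 to 0.036 for Apex1, 0.20 to 0.32 for Polb, -0.12 to 0.030 for Xrcc1, -0.066 to 0.065 for Parp1 and -0.39 to -0.21 for Pms2. With the replicate number as a block (replicate block), which was not shown to be a pairing, 1 of the 7 had an unadjusted p under 0.05 in limma (Mgmt, 0.0497, adjusted 0.313). With the deposited matrix 1 did (Pms2), and leaving out 1 tumour gave 0 to 1 (Pms2 without WD2, Mgmt without WD5). The unadjusted count over all genes was 2599 (1307 higher, 1292 lower), 493 with normexp (347 higher, 146 lower), 7050 of 36022 genes with no filter on dim probes (5995 higher, 1055 lower, median difference 0.34), 961 with array brightness as a covariate, 851 higher and 1434 lower with the deposited matrix, and 1850 (without CD4) to 3279 (without CD3) leaving out 1 tumour. The 4 repair list genes with an unadjusted p under 0.05 became 0 with normexp, 2 with array brightness and 3 to 8 leaving out 1 tumour. The 6 repair genes with a called slope became 0 with normexp, 3 with no filter and 2 (without WD2) to 6 leaving out 1 tumour. Slopes turned with normexp for Mpg (-0.033), Apex1 (-0.13), Xrcc1 (-0.11) and Parp1 (-0.14), and for Polb without the diet term (-0.039). Leaving out 1 tumour gave slopes of -0.019 to 0.14 for Apex1, -0.052 to 0.10 for Polb, -0.030 to 0.15 for Xrcc1 and -0.00048 to 0.076 for Parp1. The causes were not tested.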
